A study of Homo sapiens with 12 samples.

Results

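The data concern 10 noncoding snoRNA host genes, *SNHG1*, *SNHG3*, *SNHG5*, *SNHG6*, *SNHG7*, *SNHG8*, *SNHG12*, *SNHG15*, *SNHG16* and *GAS5*, chosen by symbol among the 26364 gene symbols of the count files. They were followed across all 12 RNA-seq libraries of a study on topoisomerase inhibitors and TNFα, with 1 library per condition. All values of the host genes use only the reads counted on their own exons, not those on the intronic snoRNAs. For the snoRNAs themselves, only the direction of calls with CPT is given, in 1 paragraph below. All 10 genes passed the low-count filter in every comparison. All libraries are from HCT116, a human colon cancer cell line, either WT or from the p65-deficient clone 32, a single-cell clone that the study's methods describe as made with CRISPR-Cas9 and a guide to the gene of the NF-κB subunit p65, although the deposited labels of these 6 libraries name an shRNA against p65. Each cell line received no inhibitor, the TOP1 inhibitor CPT (camptothecin) or the TOP2 inhibitor ICRF193, both at 5 µM for 2 h. Each was combined with either no TNFα (0 h) or 20 ng/mL TNFα for 1 h. In the paper the 2 h are a pre-treatment that TNFα follows, while the labels give 2 h of inhibitor at both TNFα times. Total inhibitor time may thus differ between 0 h and 1 h libraries, and cannot be told apart from TNFα where an inhibitor was present. The methods also name a vehicle, which the labels of libraries without inhibitor do not. Because 1 clone stands for the p65-deficient state, the loss of p65 and any other difference between this clone and the WT cells cannot be told apart.

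snoRNA host genes are transcribed by RNA polymerase II and carry small nucleolar RNAs in their introns. When the introns are removed, the snoRNAs are trimmed out of them and guide ribose methylation (box C/D) or pseudouridylation (box H/ACA) of ribosomal and other RNAs. The spliced exons of the noncoding hosts form long noncoding RNAs, several of which, *GAS5* among them, are short-lived because translation of their short reading frames exposes them to nonsense-mediated decay. The start of many such genes carries a terminal oligopyrimidine tract, a run of C and T that they share with the ribosomal protein genes. TOP1 relaxes the supercoils that build up around a transcribing polymerase, and CPT traps it on DNA.

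Because this tract is a known feature of such genes, the start site sequences are shown for 8 members, from 10 bases before to 20 bases after the RefSeq transcript start, read on the strand of the RNA. The sequences and positions are those of RefSeq on GRCh38.p14, a different build from the hg19 coordinates of the count files. Capitals mark the longest unbroken run of C and T.
SNHG1 (chr11:62855866-62855895, minus strand): gagattcgttctcaTTTTTCTactgctcgt
SNHG3 (chr1:28505933-28505962, plus strand): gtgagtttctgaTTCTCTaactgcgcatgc
SNHG5 (chr6:85678714-85678743, minus strand): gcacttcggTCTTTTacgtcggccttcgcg
SNHG7 (chr9:136728165-136728194, minus strand): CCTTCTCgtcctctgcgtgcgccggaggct
SNHG8 (chr4:118278752-118278781, plus strand): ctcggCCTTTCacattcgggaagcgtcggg
SNHG12 (chr1:28581854-28581883, minus strand): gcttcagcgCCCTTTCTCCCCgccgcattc
SNHG16 (chr17:76557754-76557783, plus strand): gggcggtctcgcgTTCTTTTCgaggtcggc
GAS5 (chr1:173869026-173869055, minus strand): tcatgaattcagatgtgtttaTTTTggagc
A run of at least 6 C or T, searched on this strand only, was present in 7 of the 8 windows. Of the 35116 windows of the same length in the RefSeq table, 30.4% held one. The run covered the annotated start in 3 of these 7, *SNHG5*, *SNHG8* and *SNHG12*. In *SNHG8* it ran from position -5 to 1, so that only its last base lies in the transcript. The run began 3, 4 and 5 bases into the transcript in *SNHG3*, *SNHG16* and *SNHG1*, counting the first base of the transcript as 1. In *SNHG7* it ended 4 bases before the start. All 7 runs are thus described by their position and not as terminal tracts. The longest run, 12 bases, was that of *SNHG12*, and the window of *GAS5* held 4 at most, which says only that no longer run lies in this window around the annotated start.

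The 12 libraries held between 8101212 and 22051046 counted reads. Of the libraries of clone 32, 4 were shallow (8101212 to 8755001 reads), namely those with TNFα and the one with ICRF193 alone, so that depth and TNFα cannot be told apart in the clone without inhibitor and with CPT. Normalized counts are reads divided by the DESeq2 size factor of the library. *RELA*, which encodes p65, had 694 to 909 normalized counts in the WT libraries and 548 to 673 in clone 32, so that all 6 clone libraries were lower but the mRNA was present. The epithelial markers *EPCAM*, *CDH1*, *KRT8*, *KRT18* and *KRT19* each had at least 780 reads in every library, whereas *VIL1* had 0 to 4. The leukocyte, endothelial and fibroblast markers were at or near 0, except *COL1A1* with 57 to 227 reads.

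Levels of the 10 genes spanned almost an order of magnitude when expressed per full listed exon length, including bases shared with other genes. *SNHG1*, host of 8 box C/D snoRNAs (hg19 chr11:62619460-62623360, minus strand), was highest with a mean of 3581 normalized counts per kb of exon (2906 to 4402 over the 12 libraries). *GAS5* (chr1:173833039-173837125, minus strand) followed with 2349, *SNHG8* (chr4:119199917-119200978, plus strand) with 2339, *SNHG6* with 2041, *SNHG16* (chr17:74553846-74561430, plus strand) with 1871, *SNHG12* (chr1:28905050-28908366, minus strand) with 1738 and *SNHG5* (chr6:86386725-86388451, minus strand) with 1370.1. The lowest levels per kb were those of *SNHG15* (chr7:45022627-45026259, minus strand) with 782, *SNHG3* (chr1:28832455-28837404, plus strand) with 437 and *SNHG7* (chr9:139619046-139622636, minus strand) with 399.7 normalized counts. Neighbours in this order overlapped in their ranges over the 12 libraries, except *SNHG5* (lowest 1172) and *SNHG15* (highest 899). Together the 10 genes took 0.109% to 0.141% of the counted reads, with a median of 0.117%.

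**Figure D1:**
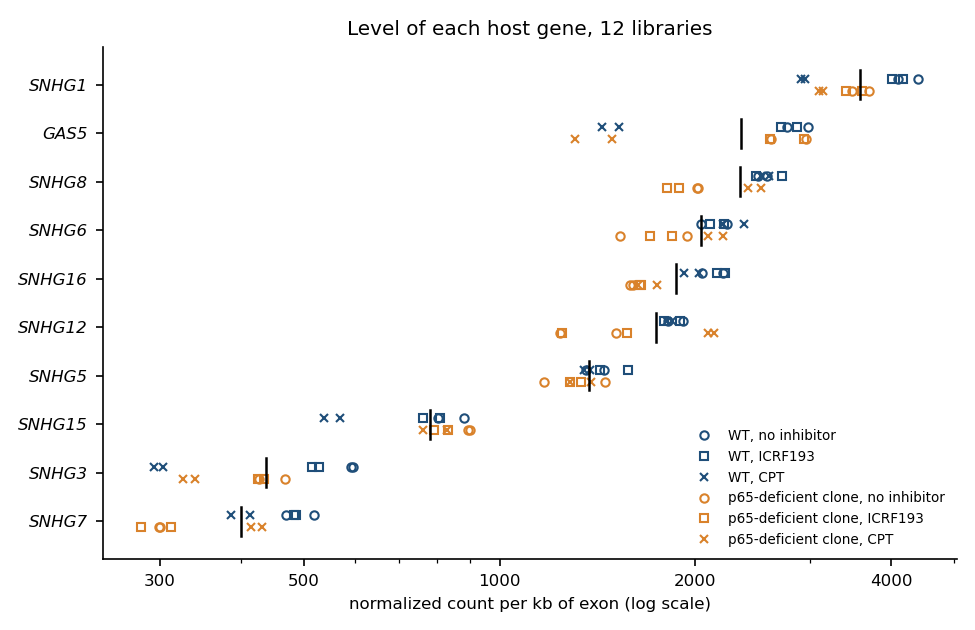
Normalized counts per kb of exon (x axis, log scale) of the 10 snoRNA host genes (rows, ordered by mean) in the 12 libraries; each symbol is 1 library, colours give the cell line, symbols the inhibitor, and black bars the mean over the 12 libraries. *SNHG1* lies highest with a mean of 3581 and *SNHG7* lowest with 399.7, and the CPT libraries of *GAS5* (crosses) lie apart from the other 8.

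The counting without strand information, and the dropping of reads that hit exons of more than 1 gene, touch some members. *SNHG3* shares 251 exon bases with *RCC1* on the same strand. *SNHG7* holds *SNORA17* (133 bases) and *SNORA43* (134 bases) within its listed exons and shares 125 with the antisense gene *FAM69B*. *SNHG6* shares 119 exon bases with the antisense gene *MCMDC2*, *GAS5* shares 41 with *GAS5-AS1* and *SNHG12* shares 8 with *TRNAU1AP*. For *SNHG1*, *SNHG5*, *SNHG8*, *SNHG15* and *SNHG16* the count files list no exon base shared with another gene. Reads of the shared bases are in none of the values given above or below, whereas the levels per kb divide by the full exon length. Those levels may thus be too low for genes with shared bases, most of all for *SNHG6*, where 119 of 472 exon bases are shared. The order of the genes by level per kb may change for this reason. Reads of an antisense partner could not be told apart from those of the host elsewhere in these exons.

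To ask whether TOP1 inhibition alters host gene RNA, CPT was compared with no inhibitor in the 4 pairs of libraries that match in cell line and TNFα. *GAS5* fell about equally in all of them, *SNHG3*, *SNHG1* and *SNHG15* fell in all of them but by less in clone 32, and *SNHG6* was slightly raised. In all, 4 of the 10 genes fell and 1 rose, where 25.1% of the 13993 genes tested fell and 23.2% rose. The median log2 fold change of the 10 genes was -0.02, beside 0.02 over all genes tested. The other 5 did not pass the test, and 2 of these, *SNHG7* and *SNHG12*, behaved differently in the 2 cell lines. The pairs differ in cell line and TNFα and stand in for replicates, so the p-values do not measure the spread between repeats of 1 condition. They rest on the spread between pairs, which edgeR draws for each gene towards that of all genes tested. In bulk RNA a change in some of the cells and a smaller change in every cell cannot be told apart.

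*GAS5*, named for its rise in growth-arrested cells and host of 10 box C/D snoRNAs, had 1746 and 1883 normalized counts in the WT libraries without inhibitor (0 h and 1 h TNFα) and 965 and 907 with CPT. In clone 32 it had 1653 and 1873 without inhibitor, and 826 and 939.5 with CPT. The 4 CPT libraries were thus all below the 4 libraries without inhibitor, with no overlap. Compared with no inhibitor, CPT left 0.553 and 0.482 of the level in WT and 0.499 and 0.502 in clone 32. The corresponding log2 ratios lay between -1.05 and -0.86, and each 95% Clopper-Pearson interval excluded 0 (-0.96 to -0.76 for the smallest decrease). Such intervals take reads as independent molecules and hold no error but that of counting. Over the 4 pairs the log2 fold change was -0.98 (SE 0.05, adjusted p = 1.24e-07, edgeR quasi-likelihood test). It lay between -1.03 and -0.96 under all alternatives tried and passed the test in each of them.

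*SNHG3*, host of the H/ACA snoRNA *SNORA73B*, had 1398 and 1388 normalized counts in WT cells without inhibitor and 712 and 689 with CPT. In clone 32 its normalized counts were 1001 and 1096 without inhibitor and 798 and 765 with CPT. CPT libraries were the lowest in both cell lines, and the WT libraries without inhibitor the highest. The log2 ratios were -0.97 and -1.01 in WT but -0.33 and -0.52 in clone 32, and -0.72 over the 4 pairs (SE 0.10, adjusted p = 0.000146, edgeR).

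*SNHG1*, the most abundant member, had 4586 and 4922 normalized counts in WT cells without inhibitor and 3249 and 3294 with CPT. In clone 32 it had 3895 and 4138 without inhibitor and 3464 and 3512 with CPT. The 4 CPT libraries lay below the others in this comparison, with a narrower gap in the clone. The log2 fold change was -0.38 (SE 0.06, adjusted p = 0.000451, edgeR).

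*SNHG15*, host of *SNORA9*, had 647 and 708 normalized counts in WT cells without inhibitor and 431 and 456 with CPT. In clone 32 the values were 719 and 722 without inhibitor, and 613 and 667 with CPT. The CPT libraries of the clone overlapped the WT libraries without inhibitor, and in the 1 h pair of the clone the log2 ratio of -0.11 had an interval that included 0. Over the 4 pairs its log2 fold change was -0.41 (SE 0.09, adjusted p = 0.00259, edgeR).

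*SNHG6*, host of *SNORD87*, rose by a log2 fold change of 0.19 (SE 0.07, adjusted p = 0.0491, edgeR), and its normalized counts of 986 to 1123 with CPT overlapped those of 724 to 1055 without inhibitor. The largest of its pair log2 ratios, 0.52, came from clone 32 at 1 h, where both libraries were shallow. Without this pair the log2 fold change was 0.09 and did not pass the test (adjusted p = 0.30, edgeR), nor did it by DESeq2 (adjusted p = 0.0864) or without the pair block (adjusted p = 0.16).

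*SNHG5* and *SNHG16* showed log2 fold changes of -0.01 (SE 0.06) and -0.02 (SE 0.05), with pair log2 ratios of -0.10 to 0.13 for *SNHG5* and -0.20 to 0.12 for *SNHG16*. *SNHG8*, host of *SNORA24*, had a log2 fold change of 0.14 (SE 0.06, adjusted p = 0.0773, edgeR). *SNHG5*, which hosts *SNORD50A* and *SNORD50B*, and *SNHG16*, which hosts *SNORD1A*, *SNORD1B* and *SNORD1C*, thus had pair ratios on both sides of 0.

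**Figure D2:**
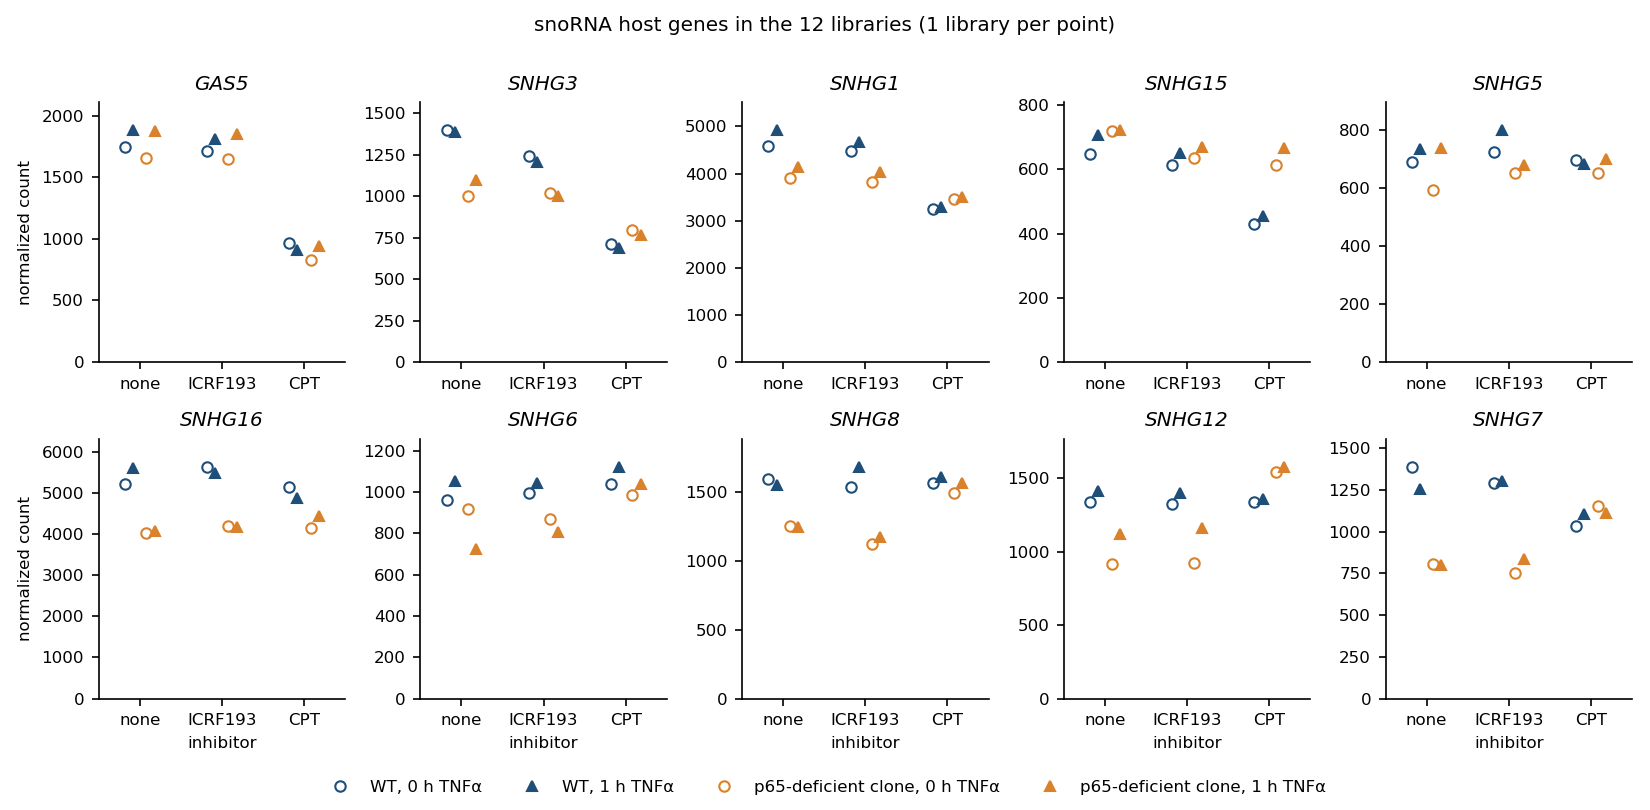
Normalized counts (y axis, from 0) of each snoRNA host gene by inhibitor (x axis) in the 12 libraries; each symbol is 1 library, blue for WT and orange for the p65-deficient clone, open circles for 0 h and filled triangles for 1 h TNFα. *GAS5* fell from at least 1653 to at most 965 with CPT in both cell lines, whereas *SNHG7* and *SNHG12* were lower in the clone than in WT without inhibitor but not with CPT.

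The CPT effect differed between the cell lines for 5 of the 10 genes, where 2.39% of the 14573 genes tested differed in the same direction, that is, were less lowered or more raised in clone 32 than in WT. These were *SNHG7*, *SNHG12*, *SNHG3*, *SNHG15* and *SNHG1*. The median of the difference (clone minus WT, log2) was 0.28 for the 10 genes and -0.02 for all genes tested. The test uses 8 libraries with 2 residual degrees of freedom. DESeq2 called 3 of them, *SNHG7*, *SNHG12* and *SNHG3*, where it called 0.996% of 11448 genes in this direction.

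*SNHG7*, host of *SNORA17* and *SNORA43*, fell from 1389 to 1035 normalized counts (0 h) and from 1255 to 1107 (1 h) with CPT in WT cells. In clone 32 it went the other way, from 804 to 1153 and from 800.4 to 1111. Both clone libraries lay far below WT without inhibitor and slightly above WT with CPT. The difference between the cell lines in the log2 effect was 0.78 (SE 0.10, adjusted p = 0.000188, edgeR). When each cell line was fitted by itself, an alternative added after the data were seen, the log2 fold change with CPT was -0.32 (SE 0.08) in WT and 0.48 (SE 0.07) in clone 32, and each passed the test.

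*SNHG12*, host of 3 H/ACA snoRNAs and *SNORD99*, had 1340 and 1414 normalized counts in WT cells without inhibitor and 1337 and 1359 with CPT. In clone 32 it had 915 and 1116 without inhibitor, and 1543 and 1579 with CPT. Without inhibitor both clone libraries lay below the WT libraries and with CPT both lay above them, while the WT values kept to a narrow range. The log2 ratios were -0.00 and -0.06 in WT, with intervals that include 0, and 0.75 and 0.50 in clone 32, and the difference between the cell lines was 0.65 (SE 0.10, adjusted p = 0.00075, edgeR). *SNHG3* and *SNHG12* lie 67645 bases apart on chromosome 1, on opposite strands, and responded in opposite directions to CPT in the clone.

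For the genes lowered in both cell lines, the difference in the log2 effect was 0.56 for *SNHG3* (SE 0.10, adjusted p = 0.00318), 0.41 for *SNHG15* (SE 0.11, adjusted p = 0.0376) and 0.32 for *SNHG1* (SE 0.07, adjusted p = 0.0166), all by edgeR. Without the 0 h pair of clone 32, *SNHG7* and *SNHG12* still passed and the other 3 did not, with differences of 0.46 for *SNHG3*, 0.48 for *SNHG15* and 0.29 for *SNHG1*. Without the shallow 1 h pair of the clone, 4 of the 5 passed, and *SNHG15* did not (0.40, adjusted p = 0.14). For *GAS5* the difference was -0.07 (SE 0.10, adjusted p = 0.76, edgeR). A dependence of the CPT effect on TNFα passed the edgeR test for 0 of the 10 genes, where 0.00686% of 14573 genes passed. None of the 10 had an unadjusted p under 0.05, and DESeq2 called 0.

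Within each cell line, CPT lowered 5 of the 10 genes in WT (*GAS5*, *SNHG3*, *SNHG1*, *SNHG15* and *SNHG7*) and the other 5 did not pass, where 24.1% of 14125 genes fell and 17.3% rose. In clone 32 it lowered 4 (*GAS5*, *SNHG3*, *SNHG1* and *SNHG15*) and raised 4 (*SNHG12*, *SNHG7*, *SNHG8* and *SNHG6*), where 27.9% of 13700 genes fell and 24.7% rose. These fits of 2 pairs each were added after the data were seen and have 1 residual degree of freedom. *SNHG8* rose by 0.27 (SE 0.06, adjusted p = 0.00021) and *SNHG6* by 0.25 (SE 0.07, adjusted p = 0.0054) in the clone by edgeR, but their difference between the cell lines did not pass the test.

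**Figure D3:**
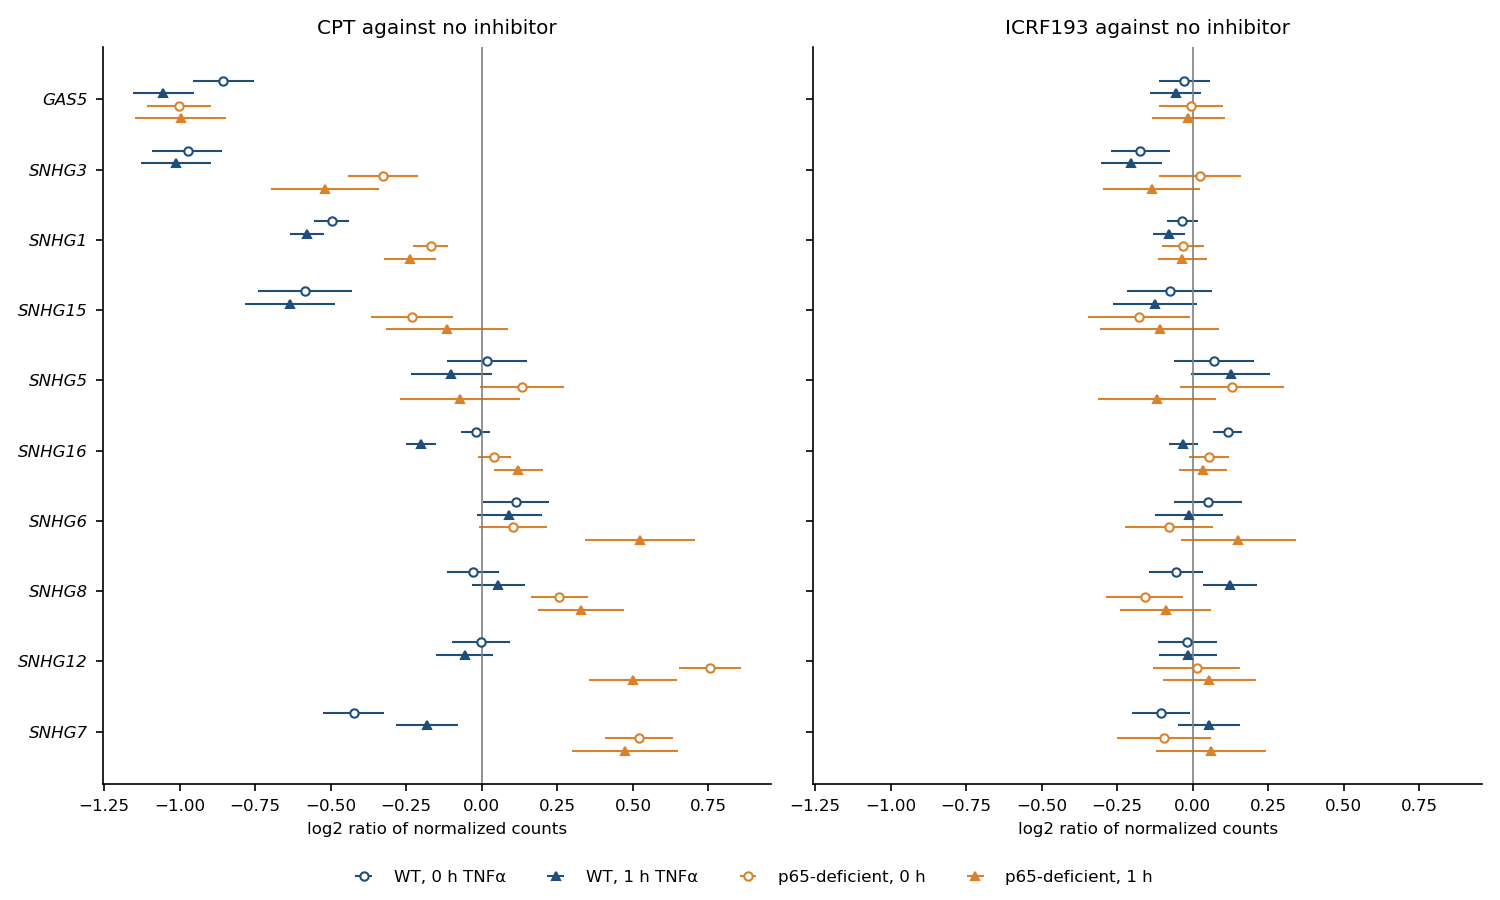
Log2 ratios of normalized counts against the matched library without inhibitor (x axis) for CPT (left) and ICRF193 (right), by host gene (rows) and pair (colour and symbol); bars are 95% Clopper-Pearson intervals for the error of counting alone. With CPT the *GAS5* ratios of the 4 pairs lie together between -1.05 and -0.86, those of *SNHG7* and *SNHG12* separate by cell line, and with ICRF193 all ratios lie between -0.20 and 0.15.

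ICRF193, which acts on TOP2, was compared with no inhibitor in the same way and shares those control libraries with the CPT comparison. It changed 0 of the 10 genes, where 2.17% of the 13631 genes tested changed. By edgeR 2 had an unadjusted p under 0.05, *SNHG3* (log2 fold change -0.13, SE 0.04, adjusted p = 0.0961) and *SNHG15* (-0.12, SE 0.05, adjusted p = 0.28), and DESeq2 called 0. Without the 0 h pair of clone 32, *SNHG3* passed (-0.18, adjusted p = 0.00322, edgeR). The libraries of that pair differ in depth, with 8755001 reads with ICRF193 and 20524958 without inhibitor. *GAS5* had 1713, 1811, 1647 and 1854 normalized counts with ICRF193, within 0.06 log2 units of each matched library without inhibitor. Over all members and pairs the log2 ratios lay between -0.20 and 0.15.

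The 2 inhibitors were also set against each other, in 4 pairs that use no library without inhibitor. *GAS5* was lower with CPT than with ICRF193 by a log2 fold change of -0.97 (SE 0.06, adjusted p = 2.18e-08, edgeR), *SNHG3* by -0.62 (SE 0.08, adjusted p = 4.75e-05), *SNHG1* by -0.35 (SE 0.06, adjusted p = 0.000655) and *SNHG15* by -0.30 (SE 0.09, adjusted p = 0.0169). These 4 of 10 compare with 25.5% of the 13900 genes tested. None of the 10 passed as higher with CPT by edgeR or DESeq2 (*SNHG6* and *SNHG12* had an unadjusted p under 0.05 by edgeR), but 1 did with total counts (*SNHG12*, where 21.2% of genes were higher), 2 did with DESeq2 size factors (*SNHG6* and *SNHG12*, where 23.4% of genes were higher), 2 without the low-count filter (*SNHG8* and *SNHG12*, where 15.7% were), 3 without the 0 h WT pair (*SNHG6*, *SNHG8* and *SNHG12*, where 20.2% were) and 2 without the 1 h WT pair (*SNHG8* and *SNHG12*, where 15.9% were). The decrease of *SNHG15* did not pass when either WT pair was left out (adjusted p = 0.0546 and 0.11, edgeR). It did not pass without the pair block either (adjusted p = 0.13, edgeR), and its 2 clone pairs showed log2 ratios of -0.05 and -0.01.

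TNFα for 1 h changed 0 of the 10 genes in WT cells, where 0.642% of 13707 genes changed, and 0 in clone 32, where 0.498% of 12858 genes did. In WT the log2 fold changes ran from -0.03 for *SNHG3* to 0.10 for *SNHG6*, which alone had an unadjusted p under 0.05, and DESeq2 called 0 of the 10. In clone 32 *SNHG12* (0.21, SE 0.06, adjusted p = 0.14), *GAS5* (0.19, SE 0.05, adjusted p = 0.13) and *SNHG5* (0.17, SE 0.07, adjusted p = 0.28) had an unadjusted p under 0.05 by edgeR, and DESeq2 called 0. For *GAS5* the 3 clone pairs gave log2 ratios of 0.18 without inhibitor, 0.17 with ICRF193 and 0.19 with CPT, where in the first and last of these only the 1 h library was shallow. Without the CPT pair *SNHG12* passed (0.32, adjusted p = 0.0156, edgeR). The TNFα effect did not pass a test of difference between the cell lines for any of the 10 genes, where 0.228% of 14459 genes passed. *SNHG6* had an unadjusted p of 0.023 there, and DESeq2 called 0.

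Clone 32 was compared with WT in the 6 pairs that match in inhibitor and TNFα. Of the 10 genes 4 were lower in clone 32, *SNHG16*, *SNHG7*, *SNHG8* and *SNHG6*, and *SNHG15* was higher, where 16.9% of 13730 genes were lower and 15.2% higher. The median log2 difference (clone minus WT) of the 10 genes was -0.19, beside 0.00 over all genes tested. *SNHG16* showed the steadiest difference. Its normalized counts were 4875 to 5640 in the 6 WT libraries (median 5345) and 4031 to 4430 in the 6 clone libraries (median 4159), with no overlap, and the log2 difference was -0.34 (SE 0.04, adjusted p = 2.95e-05, edgeR). The log2 differences were -0.43 for *SNHG7* (SE 0.11, adjusted p = 0.00744), -0.28 for *SNHG8* (SE 0.06, adjusted p = 0.00247), -0.21 for *SNHG6* (SE 0.06, adjusted p = 0.0148) and 0.23 for *SNHG15* (SE 0.07, adjusted p = 0.0245), all by edgeR.

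Clone and WT were also compared separately without and with CPT. In the 4 pairs without CPT, 8 of the 10 genes were lower in clone 32 and the other 2 did not pass, where 21.7% of 13631 genes were lower and 20.5% higher. In the 2 pairs with CPT, *SNHG15* was higher and the other 9 did not pass, where 6.21% of 14216 genes were lower and 6.39% higher. Both fits were added after the data were seen, the smaller has 1 residual degree of freedom, and they draw on the same libraries as the difference in CPT effect above. Without CPT, the log2 difference was -0.70 for *SNHG7* (SE 0.04), -0.41 for *SNHG12* (SE 0.05), -0.40 for *SNHG16* (SE 0.03), -0.39 for *SNHG8* (SE 0.04), -0.34 for *SNHG3* (SE 0.04), -0.26 for *SNHG6* (SE 0.06), -0.22 for *SNHG1* (SE 0.03) and -0.14 for *SNHG5* (SE 0.05). *GAS5* (-0.01, SE 0.04) and *SNHG15* (0.09, SE 0.05) did not pass.

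With CPT the log2 difference between clone and WT was 0.08 for *SNHG7* (SE 0.12), 0.21 for *SNHG12* (SE 0.11), 0.16 for *SNHG3* (SE 0.12) and 0.09 for *SNHG1* (SE 0.10), none past the test. *SNHG15* was higher in the clone by 0.53 (SE 0.13, adjusted p = 0.0011, edgeR), with 613 and 667 normalized counts in clone 32 against 431 and 456 in WT. Depth moved with the cell line in 4 of the 6 pairs. In the 2 pairs where both libraries were deep, those at 0 h TNFα without inhibitor and with CPT, the log2 ratios were -0.79 and 0.16 for *SNHG7*, -0.55 and 0.21 for *SNHG12*, -0.48 and 0.17 for *SNHG3*, and -0.37 and -0.31 for *SNHG16*. A fit of these 2 pairs alone called 1 of the 10 genes, *SNHG16*, where 2.07% of 14268 genes were lower and 1.58% higher. It has 1 residual degree of freedom and joins a pair without CPT to a pair with CPT. Genes whose 2 ratios have opposite signs, such as *SNHG7*, *SNHG12* and *SNHG3*, could thus hardly pass it at any depth. The fit does not isolate the part of depth, which was not tested.

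**Figure D4:**
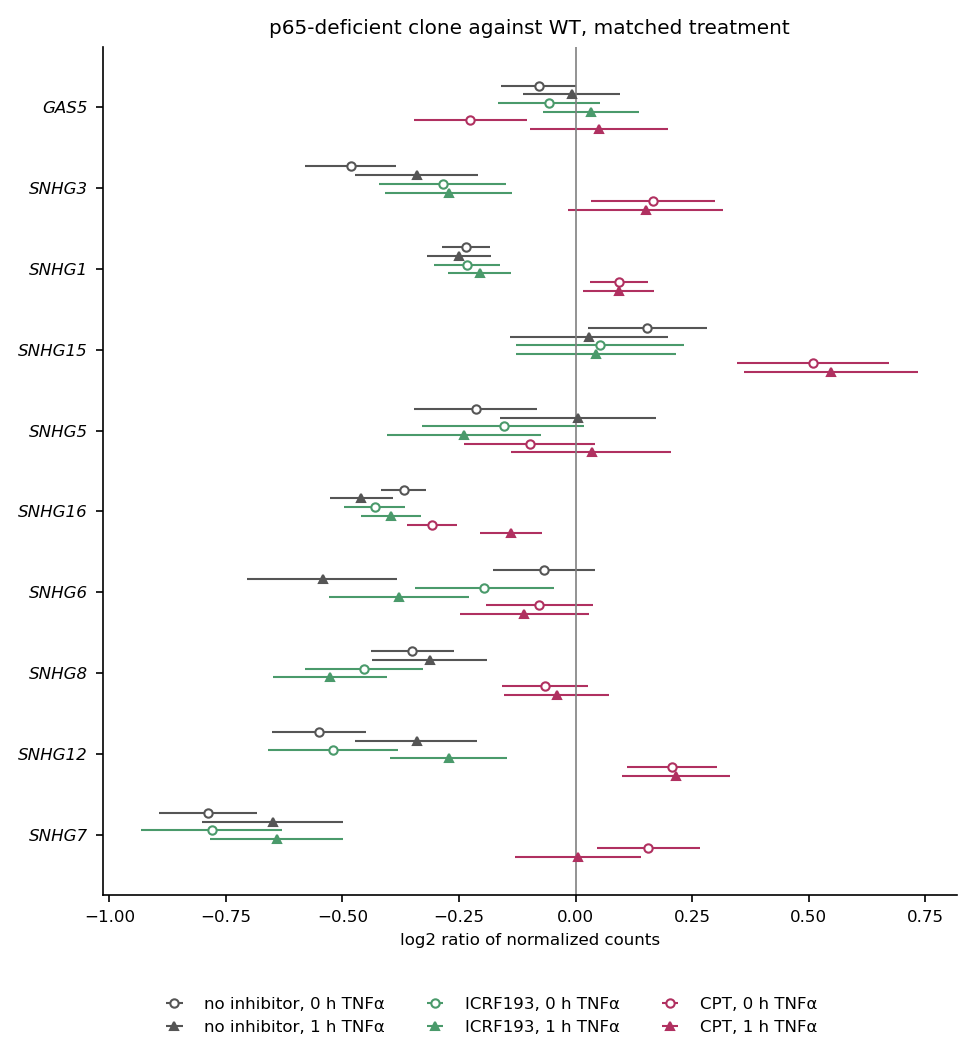
Log2 ratios of normalized counts of the p65-deficient clone against WT at matched treatment (x axis), by host gene (rows), inhibitor (colour) and TNFα (symbol); bars are 95% Clopper-Pearson intervals for the error of counting alone. For *SNHG7* the 4 ratios without CPT lie between -0.79 and -0.64 and those with CPT at 0.16 and 0.00, and *SNHG16* lies below 0 in all 6 pairs.

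The reads on the intronic snoRNAs cannot be told apart from those of unspliced host RNA, so only the number of snoRNAs called in each direction with CPT (edgeR) is given. The count files list 33 snoRNAs inside the 10 hosts. Of all 13993 genes tested, 25.1% fell and 23.2% rose with CPT. In hosts that fell with CPT, 7 of the 10 in *GAS5* fell and *SNORD74* rose, 7 of the 8 in *SNHG1* fell, *SNORA73B* in *SNHG3* rose, and *SNORA9* in *SNHG15* did not pass. In *SNHG6*, which was slightly raised, *SNORD87* fell, with a mean of only 26 reads. Counts were also low for *SNORD77*, among those in *GAS5* that fell, with a mean of 18.25 reads. In the hosts that did not pass over the 4 pairs, 2 of 4 in *SNHG12* and *SNORD50A* in *SNHG5* rose, those in *SNHG8* and *SNHG16* did not pass, and both in *SNHG7* had 0 reads.

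Other genes of the snoRNA pathway changed with CPT in both directions. Among all 13993 genes tested, 23.2% rose and 25.1% fell. Of 13 further noncoding snoRNA host genes tested, 7 rose and 2 fell, with a median log2 fold change of 0.28, beside 0.02 over all genes. Those with the largest changes were *SNHG21* (1.13, SE 0.17), *SNHG9* (1.06, SE 0.08) and *SNHG11* (0.88, SE 0.10), which rose, and *SNHG4* (-0.78, SE 0.12), which fell. Of 44 protein-coding snoRNA host genes, 26 rose and 7 fell, among them *PPAN*, a ribosome biogenesis factor (-1.07, SE 0.15), *EIF5*, a translation initiation factor (-0.95, SE 0.04), *TAF1D*, a subunit of the RNA polymerase I factor SL1 (-0.89, SE 0.06), and the chromatin remodeller *CHD8* (-0.74, SE 0.05).

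Of 19 genes for snoRNP proteins and their assembly factors, 6 rose and 5 fell, where 23.2% of all genes tested rose and 25.1% fell. The cap hypermethylase *TGS1* (-0.62, SE 0.05) and the assembly factors *NUFIP1* (-0.61, SE 0.08) and *ZNHIT6* (-0.38, SE 0.06) fell, and *NHP2*, a core H/ACA protein, rose by 0.25 (SE 0.05). Of 16 factors of nonsense-mediated decay, the pathway that degrades several of the spliced host RNAs, 11 fell and 2 rose, with a median of -0.26. *SMG9* (pair log2 ratios -1.51 to -0.58), *SMG6*, an endonuclease of the pathway (-0.57, SE 0.08), the kinase *SMG1* (-0.52, SE 0.06) and *UPF2* (-0.45, SE 0.07) fell most among those with 1 direction in all pairs.

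The difference in CPT effect between the cell lines passed for 3 of the 13 further noncoding hosts, in the same direction as for the 5 members. These were *SNHG20* (0.86, SE 0.21), *SNHG10* (0.69, SE 0.15) and *DANCR* (0.34, SE 0.09). Of all 14573 genes tested, 2.39% passed in this direction and 2.38% in the opposite one. The difference passed for 2 of the 44 protein-coding hosts, *RPL17* (0.57, SE 0.13) and *TNPO2* (0.38, SE 0.09). In the decay list it passed in the opposite direction for *SMG9* (-0.73, SE 0.13) and *UPF2* (-0.38, SE 0.09).

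Some of the 10 genes had like profiles over the 12 libraries, which share cell line and treatment, and others did not. Of the 45 gene pairs, 29 had a positive and 16 a negative Pearson's r of log2 CPM, with a median of 0.32. The highest were 0.98 for *SNHG1* and *SNHG3*, 0.89 each for *SNHG7* and *SNHG8*, *SNHG1* and *GAS5*, and *SNHG3* and *GAS5*, and 0.81 for *SNHG8* and *SNHG12*. The lowest were -0.66 for *SNHG6* and *SNHG15* and -0.60 for *SNHG6* and *GAS5*. Across the 10 genes, which are not independent replicates, 6 features were set against the log2 fold change with CPT as a description. Spearman's rho lay between -0.70 (genomic span, Pearson's r -0.27) and 0.08, and Pearson's r between -0.60 (number of exons listed, Spearman's rho -0.40) and 0.20. Among 10219 other genes with a mean of at least 100 reads, those whose profile over the 12 libraries was most like the members' mean were *MEF2D* (Pearson's r 0.93), *TJAP1* (0.93), *TJP1* (0.93), *DDX5* (0.93) and *PISD* (0.93). The profiles most like that of *GAS5* alone, a search added after the data were seen, were those of *CNOT4*, *ZBED5*, *DDX20*, *ZNF28* and *EIF5* (each 0.99), and *EIF5* is itself a snoRNA host.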

How the data were processed

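The authors isolated total RNA, made 1 TruSeq Stranded total RNA library per condition and trimmed the reads with trimmomatic. The deposited values are raw counts, which the authors made with featureCounts 1.5.0 on exons of an hg19 annotation, per the file headers, with no strand option set and without counting reads that overlap more than 1 gene. The submitters' processing notes also list STAR and deepTools.

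Each inhibitor comparison, TNFα per cell line (3 pairs each), clone against WT (6 pairs) and the 3 differences between effects were fitted over all genes with edgeR 4.0.16 (TMM, low-count filter, quasi-likelihood test, pair as a block, Benjamini-Hochberg adjustment, threshold 0.05). The SE is the log2 fold change divided by the root of the F statistic. No condition has a replicate, and nothing says that paired libraries come from separate cultures. Log2 ratios of 2 libraries used DESeq2 1.42.0 size factors, no pseudocount and Clopper-Pearson intervals at 95%. Fits were tested on simulated data.

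The 10 genes, the 4 side lists (written from general knowledge) and the tests were chosen with earlier results of these data known. In side lists, up to 4 genes were named by the largest change past the threshold, with a mean of at least 20 reads and 1 direction in all pairs. For differences in the CPT effect the direction of pairs was not required. The 5 genes most alike had a mean of at least 100 reads. Of 19 further noncoding hosts, 16 were found in the files. Start sequences came from RefSeq (GRCh38.p14): *SNHG15* had no entry there and *SNHG6* is not shown. Alternatives were DESeq2 size factors, total counts, no low-count filter, the DESeq2 test, no block, leaving out each pair, 1 additive model over 12 libraries, only pairs of like depth, and subsets of pairs. Computing used matplotlib 3.10.9, scipy 1.17.1, pandas 2.3.3 and numpy 2.4.6 under Python 3.11.15, and R 4.3.3.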

Additional observations from a re-analysis of the deposited data

Results flagged for a closer look

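For 5 of the 10 host genes the effect of CPT on the log2 scale differed between clone 32 and WT by a test of the difference itself (edgeR interaction term, 8 libraries). The difference, clone minus WT, was 0.78 for *SNHG7* (adjusted p = 0.000188), 0.65 for *SNHG12* (adjusted p = 0.00075), 0.56 for *SNHG3* (adjusted p = 0.00318), 0.41 for *SNHG15* (adjusted p = 0.0376) and 0.32 for *SNHG1* (adjusted p = 0.0166). The mean pair log2 ratio with CPT was -0.30 in WT and 0.50 in clone 32 for *SNHG7*, and -0.03 and 0.63 for *SNHG12*. It was -0.99 and -0.42 for *SNHG3*, -0.61 and -0.17 for *SNHG15*, and -0.54 and -0.20 for *SNHG1*. The 0 h pairs of both cell lines, whose libraries are all deep, and the 1 h pairs, of which the clone's is shallow, show the same order for all 5 genes. The part of depth and of the clone's origin in these differences was not tested. With 1 library per condition, no sample could be compared with others of its group.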

How the results depend on the processing

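The CPT calls of *GAS5*, *SNHG3*, *SNHG1* and *SNHG15* kept their direction and side of the threshold under all alternatives tried. The members called in the CPT comparison numbered 8 in the clone pairs alone (52.7% of all genes called, beside 48.3%), an alternative added after the data were seen. Clone against WT gave 8 without the low-count filter (22.3% of all genes called), 3 without the pair block (14.9%), 1 with only pairs of like depth (3.65%), 8 with only the pairs without CPT (42.1%) and 1 with only those with CPT (12.6%), beside 5 (32.1%), and leaving out 1 pair gave 4 (without the 1 h pair with ICRF193, or that without inhibitor) to 8 (without the CPT pair at 0 h). The CPT effect by cell line gave 3 by DESeq2 (1.27%), beside 5 (4.78%), and 2 (without the 0 h clone pair) to 6 on leaving out 1 pair. Leaving out 1 pair gave 0 to 1 member for ICRF193, for TNFα in clone 32 and for the CPT effect by TNFα (*SNHG12*, without the 0 h WT pair). *SNHG7* reversed in 2 subsets added later: -0.32 with CPT in WT pairs alone, against 0.07 over 4 pairs, and 0.084 for clone against WT with CPT, against -0.43 over 6 pairs. Of 211 alternative values of called members, 181 stayed on their side of the threshold and 1 changed sign. Of 669 values of members not called, 36 passed the threshold with their sign kept. *SNHG7* with CPT in WT pairs alone also passed, with its sign reversed, and in all 56 values changed sign. Total counts or a pseudocount of 1 left 4 members lower with CPT in all 4 pairs. Depth limits the clone's TNFα comparison, where 2 of 3 pairs differ in depth. For clone against WT, the fit of pairs of like depth joins a pair without CPT to one with CPT, so it does not isolate depth.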
